A study of Mus musculus with 4 samples.

Results

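Ighm, Igkc, Cd79a, Cd79b, Ms4a1, Jchain and Mzb1 were examined as 7 genes of B cells and antibody-secreting cells, chosen by symbol among the 55450 genes of a single-cell matrix from mouse 4T1 tumours. They were singled out because an earlier description of these data had shown no B cell cluster and had placed Ighm in dendritic cells, so the levels of the 7 genes in those cells are given here as a description. The question was which of the 32133 kept cells held their transcripts, and whether Ighm lay in dendritic cells, defined as cells with at least 3 Siglech UMIs or at least 2 Cd209a UMIs. A UMI, or unique molecular identifier, stands for 1 captured transcript molecule.

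The series holds 4 tumour samples, of which 2 were labelled PBS, 1 was labelled TIOs and 1 had a title and a treatment text that disagree. TIOs are freeze-killed macrophages loaded with particles that respond to near-infrared light. In each group, 4T1 cells, a BALB/c mammary carcinoma line, were implanted in the right flank of BALB/c females aged 6 to 8 weeks at 1000000 cells per mouse. PBS or TIOs were injected intravenously on day 7, near-infrared light (980 nm, 1.0 W/cm2) was given for 5 min per session, first on day 8 and again on days 9 and 10, and tumours were taken on day 13 and sorted for CD45, the surface protein of leucocytes. No source used here links the 4 libraries of the matrix to the samples, nor says how many mice went into each, so no treatment was compared, and each library is given as a sample of unknown treatment.

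The libraries were not alike. Of 33064 barcodes, 32133 held at least 300 genes and at most 15% mitochondrial UMIs, in 6783 to 8889 cells per library, and the median depth of those cells was 11698 UMIs in library 1, 2641.5 in library 2, 2695 in library 3 and 7182 in library 4. Named non-haematopoietic classes, those of tumour, stromal and keratinocyte-like cells, made up 28.5% of kept cells and 57.3% of library 1, although the cells had been sorted for CD45. Library 1 stood apart with 4083 of all 4603 cells named tumour or epithelial-like. Library 4 held most monocyte-like cells, 3130 of 3898. In all, 101 barcode sequences occurred in 2 libraries each.

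A B cell carries its antibody as a surface receptor, in which a heavy chain with the mu constant region (Ighm) pairs with a kappa (Igkc) or lambda (Iglc1, Iglc2, Iglc3) light chain, and the Cd79a and Cd79b proteins pass the signal inward. Ms4a1 encodes the B cell surface protein CD20, while Jchain joins IgM and IgA into the polymers that plasma cells secrete, and Mzb1 is a chaperone of the endoplasmic reticulum that helps assemble them. Plasmacytoid dendritic cells, marked in mice by Siglech, are known for interferon production and for sharing with B cells transcription factors such as Tcf4 and Spib. Conventional dendritic cells marked by Cd209a present antigen to T cells.

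Ighm (ENSMUSG00000076617) lies at chr12:113418558-113422730 on the minus strand and Igkc (ENSMUSG00000076609) at chr6:70726435-70726966 on the plus strand of GRCm38, both annotated as immunoglobulin constant genes. Cd79a lies at chr7:24897381-24902197 (plus), Cd79b at chr11:106311341-106314762 (minus), Ms4a1 at chr19:11249675-11266241 (minus) and Jchain at chr5:88519809-88527891 (minus), all protein-coding. Igkc sits inside an intron of Gm30211 and shares no exonic base with it. Mzb1 shares 57.2% of its exonic bases with SPATA24 on the same strand, so its count is uncertain. The gene count of Ighm covers 2 messenger forms that the matrix does not separate, the secreted one of plasma cells and the membrane one of B cells. They share 1305 coding bases and then end differently, which is shown because an Ighm UMI cannot be given to either. In the lines below, from the annotated transcripts on GRCm38, the last 30 shared coding bases are in lower case and the coding bases that follow them are in capitals, 59 in the secreted form and 122 in the membrane form.
Ighm secreted end: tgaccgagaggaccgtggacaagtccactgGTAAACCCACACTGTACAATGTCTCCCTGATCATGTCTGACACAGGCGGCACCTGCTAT
Ighm membrane end: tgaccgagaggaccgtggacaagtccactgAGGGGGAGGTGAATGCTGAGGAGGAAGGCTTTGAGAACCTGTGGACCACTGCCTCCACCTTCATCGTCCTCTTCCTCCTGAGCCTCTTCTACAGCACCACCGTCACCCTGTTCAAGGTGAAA

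The lambda constant genes, which the results turn on beside Igkc, lie together on chromosome 16 (Iglc2 at chr16:19198396-19200351, Iglc3 at chr16:19065230-19065681 and Iglc1 at chr16:19061618-19062071, all minus strand). The coding sequence of Iglc3 was identical to that of Iglc2 at 303 of 315 aligned bases (96.2%), while Iglc1 was identical at 73.4%. The last 90 coding bases before the stop are shown because they are part of what tells the copies apart, with the bases that differ from Iglc2 in capitals, 1 in Iglc3 and 29 in Iglc1. Reads of Iglc2 and Iglc3 may have been split between the copies, so the values of either are uncertain and those of the 3 genes together are less so.
Iglc2: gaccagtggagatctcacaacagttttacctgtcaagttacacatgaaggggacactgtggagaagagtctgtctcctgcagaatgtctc
Iglc3: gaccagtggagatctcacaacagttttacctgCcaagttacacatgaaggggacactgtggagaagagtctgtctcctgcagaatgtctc
Iglc1: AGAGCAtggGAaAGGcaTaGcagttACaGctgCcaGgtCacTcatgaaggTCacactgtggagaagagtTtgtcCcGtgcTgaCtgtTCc

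All 7 genes were detected, but at very different levels. Ighm had 8259 UMIs in 2637 cells, or 8.21% of kept cells (95% exact Clopper-Pearson interval 7.91 to 8.51, which like all intervals here covers counting error and not differences between mice). Igkc had 8227 UMIs, but in 511 cells (1.59%). The receptor subunits were sparse, Cd79a with 373 UMIs in 203 cells and Cd79b with 466 UMIs in 346 cells. Ms4a1 had 86 UMIs in 48 cells, Jchain 844 UMIs in 51 cells and Mzb1 4 UMIs in 4 cells. Barcodes that failed the filters held 18 Ighm, 4 Igkc and 1 Cd79b UMIs and none of the other members.

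The libraries held these transcripts unevenly. Ighm was detected in 11.5% of the cells of library 1, 5.2% of library 2, 4.07% of library 3 and 11.4% of library 4. Libraries 1 and 4, which were deeper, had the higher shares. Library 3 was below library 2 at a like median depth (2695 and 2641.5 UMIs). Igkc had 3861 UMIs in library 1, 141 in library 2, 3874 in library 3 and 351 in library 4. For Cd79a the libraries held 61, 57, 172 and 83 UMIs, and for Cd79b 87, 65, 119 and 195. Library 3 was highest for the former and library 4 for the latter. Ms4a1 had 3, 3, 39 and 41 UMIs, so that libraries 1 and 2 were each at the number of UMIs that a count of 0 allows. Jchain had 266, 8, 555 and 15 UMIs, and Mzb1 had 1 UMI in each library.

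The cells that held each gene differed (the plot of holders by gene). They were sorted in turn into cells that passed a plasma cell gate, a B cell gate, the Siglech gate and the Cd209a gate, and the rest were sorted by cluster name. A cell passed the B gate if it held a UMI of at least 2 of the 3 B cell genes Ms4a1, Cd79a and Pax5. It passed the plasma gate with at least 2 Jchain and at least 5 Igkc UMIs. The plasma gate had been set to ask for Mzb1 too, and in that form 0 of 32133 cells passed (exact upper bound 0.0115%). The Mzb1 condition was dropped after the data were seen, and 2 cells then passed.

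**Figure D1:**
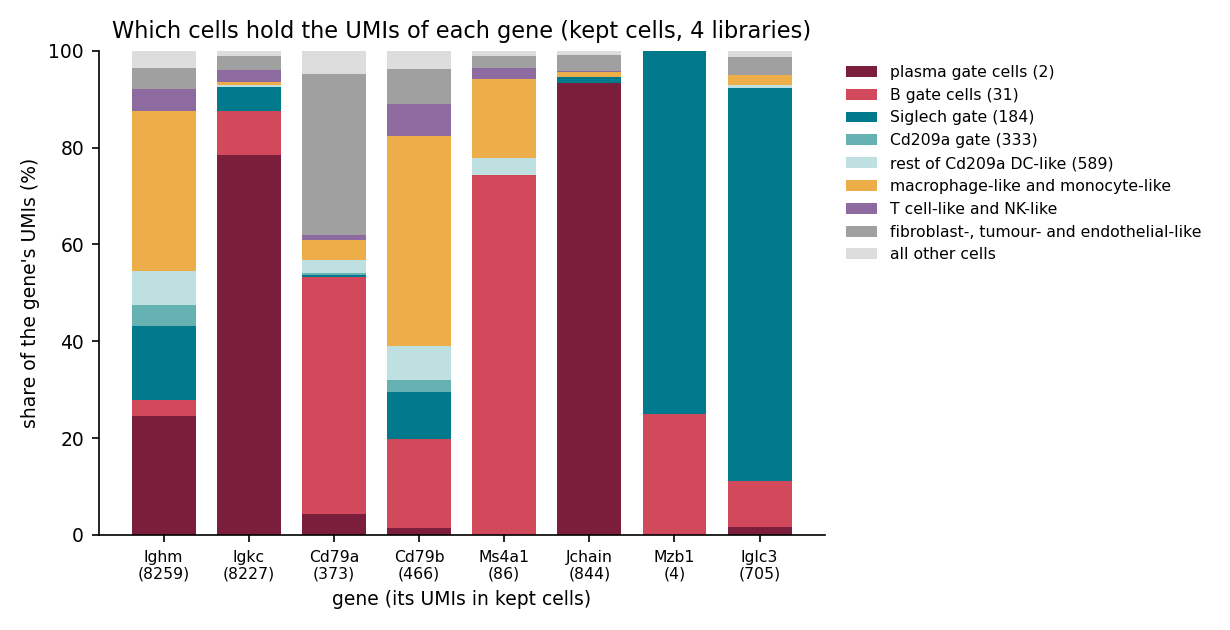
Share of the UMIs of each gene (y axis, %) held by 9 groups of kept cells, with the UMIs of the gene in brackets on the x axis and the number of cells of each gate in the key. The 2 plasma gate cells held 78.4% of Igkc and 93.2% of Jchain, the 31 B gate cells held 74.4% of Ms4a1, and the Siglech gate held 81.1% of Iglc3, while Ighm was spread over all groups. Igkc and Jchain set the plasma gate, and Ms4a1 and Cd79a are B gate genes, so their shares there follow in part from the gates.

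Jchain and Igkc lay for the most part in 2 cells. Of the Jchain UMIs, 93.2% were in the plasma gate cells, as were 78.4% of the Igkc UMIs and 24.6% of the Ighm UMIs. The 31 B gate cells held 74.4% of Ms4a1, 49.1% of Cd79a, 18.2% of Cd79b, 9.24% of Igkc and 3.23% of Ighm. B and plasma gate cells together held 27.9% of the Ighm UMIs and 19.7% of the Cd79b UMIs, against 87.6% for Igkc and 53.4% for Cd79a. Jchain and Igkc set the plasma gate, and Ms4a1 and Cd79a are B gate genes. Their shares in these cells thus follow in part from the rule, whereas Ighm and Cd79b were not used by it. The dendritic gates held 19.7% of all Ighm UMIs (1629 UMIs), with 15.3% in the Siglech gate and 4.43% in the Cd209a gate. Macrophage-like cells outside the gates held 24.9% of Ighm and 29.6% of Cd79b, and monocyte-like cells 8.21% and 13.7%. Fibroblast-like cells held 23.3% of Cd79a, at 0.454 to 0.883 CPM in their clusters. All kept cells had 1.05 CPM, with the B and plasma gate cells among them. Without those, cells with no Siglech UMI had 0.482 CPM.

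B cells were few and uneven across libraries. The B gate found 4 cells in library 1, 1 in library 2, 20 in library 3 and 6 in library 4, or 31 of 32133 cells (0.0965%, exact interval 0.0656 to 0.137). Library 3 held most of them, and without it 11 remained. Asking for 1 gene of the 3 gave 272 cells and for all 3 genes 14. Of the 31 cells, 27 had been placed in the cluster named for Cd209a dendritic cells, in which they were 27 of 908 cells, so no cluster was formed by them. The name of this cluster is that of its best marker list only. Of its 879 cells outside the B and plasma gates, 341 (38.8%) held a Cd209a UMI. A list of other dendritic cells, with Xcr1 and Clec9a, came second (mean log2 fold 2.59 against 3.59).

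The 27 cells had the profile of B cells rather than of their cluster. Of the 9 B cell markers, 3 are the gate genes, whose presence follows from the rule. The other 6 were each found in at least 10% of the 27 cells. Ebf1, a transcription factor of early B cells, was in 24 cells and Bank1, an adaptor of the receptor, in 20. Fcmr was in 14, Fcer2a in 11, Cd22 in 6 and Cr2 in 4. All 6 Cd209a dendritic cell markers, all 6 T cell markers, all 6 NK markers and all 6 mast and basophil markers were at 0 UMIs in them. The summed level of the 6 B cell markers not used by the gate was 3178 CPM (UMIs per 1000000 UMIs of the 27 cells). It was 14.5 in the other cells of their cluster, 54.7 in the Siglech gate and 7.58 in neutrophil-like cells. Ebf1 made up 1558 of the 3178 CPM and was not confined to B cells, with 41087 UMIs in 4856 kept cells. It was at 7.65 CPM in the other cells of the cluster and 6.7 CPM in neutrophil-like cells. Of 6 neutrophil markers 4 were found in at least 10% of the 27 cells, at 1728 CPM summed, of 5 fibroblast markers 4, at 910 CPM, and of 6 monocyte markers 3, at 679 CPM. Of 5 mature dendritic cell markers 2 were found in at least 10% (956 CPM) and of 7 macrophage markers 2 (802 CPM). Neutrophil-like cells held fibroblast markers at 1199 CPM too, and the part of free RNA in any of these was not tested.

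Their members followed the receptor (the plot of UMIs per cell). The 27 cells held 564 to 5778 UMIs each, with a median of 2233. Ighm ranged from 0 to 31 UMIs with a median of 7, Igkc from 0 to 128 with a median of 17, and Cd79a from 1 to 19 with a median of 5. Cd79b ranged from 0 to 10 with a median of 2 and Ms4a1 from 0 to 9 with a median of 1. Cd79a was found in 27 of the 27 cells, Ighm and Igkc in 25 each, Ms4a1 in 24 and Cd79b in 22. Since Cd79a and Ms4a1 are gate genes, their presence follows from the rule, whereas Ighm, Igkc and Cd79b were not used by it. Jchain was at 0 in all 27 cells and Mzb1 had 1 UMI in 1 cell.

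Among genes of the same cells outside the members, Ighd, the delta heavy chain that naive B cells carry beside mu, was found in 18 cells, and Igha, the heavy chain of IgA, in none. Vpreb3 was found in 18 cells, the coactivator Pou2af1 in 17, the IgM Fc receptor Fcmr in 14 and Fcer2a, the low-affinity IgE receptor CD23, in 11. The kappa count exceeded the lambda count in 20 cells and the lambda count exceeded the kappa count in 4. One light chain usually excludes the other in a B cell, yet UMIs of both were found in 21 of the 27. Iglc1 reached 77 UMIs in a cell of library 1 with 26 Igkc UMIs.

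The 4 other B gate cells lay in other clusters. A cell of library 1 with 4367 UMIs lay in the plasmacytoid cluster with 12 Siglech UMIs, 8 Ighm, 9 Igkc, 1 Cd79a, 6 Cd79b and 1 Ms4a1 UMIs. The other 3 were from library 3, held 34458 to 70222 UMIs, more than any of the 27, and lay in fibroblast-like and endothelial-like clusters. The largest held 643 UMIs of fibroblast markers and none of Ighm, Igkc or Ms4a1. The other fibroblast-like cell held 827 fibroblast marker UMIs beside 12 Ighm, 2 Igkc and 1 Ms4a1 UMIs, and the endothelial-like cell held 97 endothelial marker UMIs beside 22 Ighm, 42 Igkc and 3 Ms4a1 UMIs. The raw Ighm, Igkc and Ms4a1 counts of these last 2 cells lay within the ranges of the 27. The depths were not alike, at 53247 and 34458 UMIs against at most 5778, so their levels relative to depth were not alike. None of the 31 cells had a barcode shared between libraries, and 2 were among the 5% of cells with the highest doublet scores of their library. The doublet caller had not worked in 2 libraries, so a lower score does not show that a barcode held 1 cell. The same limit applies to the doublet scores given below.

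**Figure D2:**
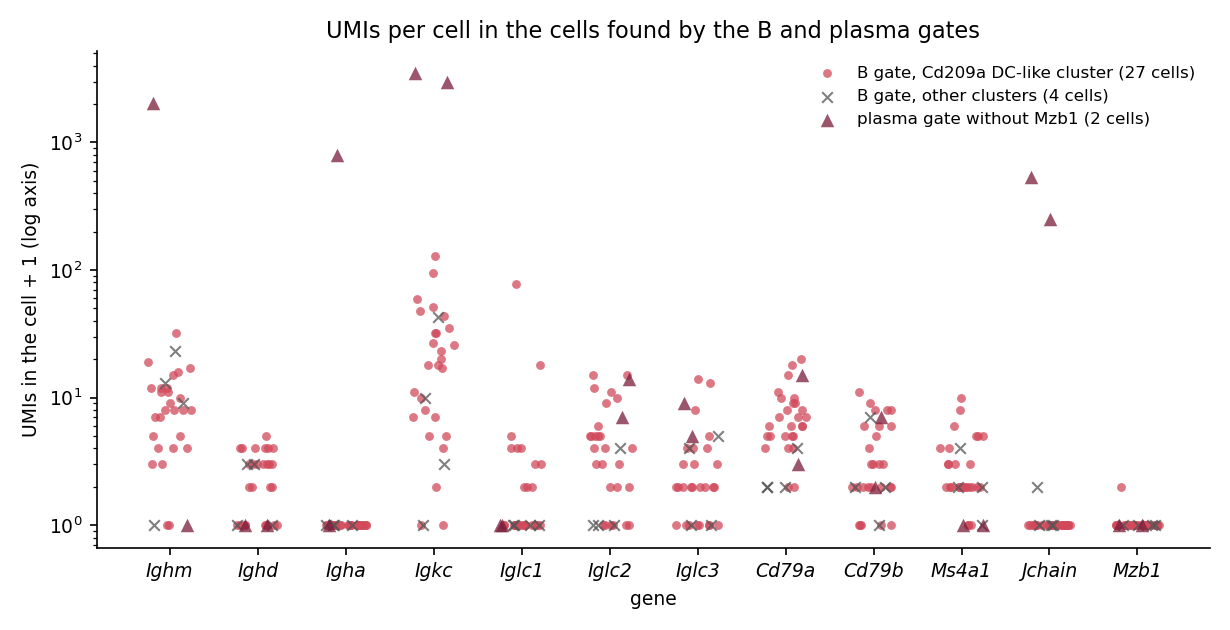
UMIs plus 1 in each cell (y axis, log scale) of 12 genes (x axis) in the 27 B gate cells of the Cd209a DC-like cluster (circles), the 4 B gate cells of other clusters (crosses) and the 2 plasma gate cells (triangles), with points spread sideways to be seen. The 2 plasma gate cells lie far above all others for Igkc and Jchain, and 1 of them at 1 (0 UMIs) for Ighm.

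The 2 plasma gate cells carried different heavy chains. The cell of library 1 had 10686 UMIs, among them 3480 of Igkc (32.6% of the cell), 792 of Igha, 252 of Jchain and none of Ighm. The cell of library 3 had 17485 UMIs, among them 2969 of Igkc (17%), 2034 of Ighm, 535 of Jchain and none of Igha. The former thus held the alpha and the latter the mu chain. Immunoglobulin constant genes, variable segments and Jchain together made up 43.3% and 31.8% of their UMIs. Cd79a had 14 and 2 UMIs in them and Cd79b 6 and 1, while Ms4a1, Pax5 and Mzb1 were at 0 in both. Of the plasma cell genes, Derl3, which helps clear misfolded proteins from the endoplasmic reticulum, had 4 and 7 UMIs. Xbp1, a transcription factor of secretory cells, had 4 and 15, and Tnfrsf17, the survival receptor BCMA, had 4 and 1. Others were low, with Sdc1 at 1 and 2 UMIs and Prdm1 at 0 and 2. Sdc1 was found in 8482 kept cells and Xbp1 in 13687, so their counts do not set these 2 cells apart. The library 1 cell was among the highest 5% of doublet scores of its library and held 8 UMIs of T cell markers. The library 3 cell was not among them and held 1 such UMI. Each stands for 1 cell of 1 library, with no replicate.

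Ighm lay in nearly every cell of the Siglech gate. The gate held 185 cells, 11 in library 1, 27 in library 2, 22 in library 3 and 125 in library 4, of which 160 lay in the cluster of 163 cells named for plasmacytoid dendritic cells. Of 7 plasmacytoid markers other than Siglech, 6 were found in at least 10% of the gated cells, with Ccr9, the gut-homing chemokine receptor, in 95.7%, Tcf4 in 99.5% and Ly6d in 9.19%. Of 9 B cell markers none was found in 10% of them, and Fcer2a was at 0, whereas 4 of 8 plasma cell markers, a list that holds Igkc and Jchain, were (350 CPM summed). Monocyte markers (5 of 6, 6134 CPM), fibroblast markers (4 of 5, 6402 CPM), neutrophil markers (4 of 6, 1374 CPM) and macrophage markers (6 of 7, 876 CPM) were found in at least 10% of them too, and their part in the results was not tested. Ighm was detected in 180 of the 185 cells, or 97.3% (93.8 to 99.1), with a median of 7 UMIs in those cells and at most 19.

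The libraries gave like shares, 90.9% (58.7 to 99.8) in library 1, 96.3% (81 to 99.9) in library 2, 95.5% (77.2 to 99.9) in library 3 and 98.4% (94.3 to 99.8) in library 4. The level of Ighm in the gate was 699, 863, 744 and 812 CPM, and 808 CPM (exact Poisson interval 764 to 854) over the 4 libraries. All intervals of the shares overlapped. In neutrophil-like cells, which should lack the gene, the share was 0.742% (0.584 to 0.929) at a median depth of 1778 UMIs, against 6839 in the gate. After thinning each cell to 1000 UMIs, which left out 1 gated and 904 neutrophil-like cells, Ighm was detected in 63% (55.6 to 70) of the gated and 0.38% of the neutrophil-like cells. The difference thus remained at equal depth.

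The Cd209a gate held Ighm less often. Its 333 cells, 12 in library 1, 159 in library 2, 51 in library 3 and 111 in library 4, had at least 2 Cd209a and under 3 Siglech UMIs, and 272 lay in the cluster of the same name. Of 5 Cd209a dendritic cell markers other than Cd209a, 4 were found in at least 10%, with Clec10a, a galactose-binding lectin, in 68.8% and Ccl17 in 9.91%. Macrophage markers (7 of 7, 2084 CPM), monocyte markers (5 of 6, 2634 CPM), fibroblast markers (5 of 5, 2847 CPM) and neutrophil markers (4 of 6, 1266 CPM) were found as well, and their part in the results was not tested, while the B cell genes Ms4a1, Pax5 and Cr2 were at 0. Ighm was detected in 139 cells, or 41.7% (36.4 to 47.2), at 95.1 CPM (85.6 to 105) and a median depth of 9806 UMIs.

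Between libraries the share in the Cd209a gate was 25% (5.49 to 57.2) in library 1, 32.1% (24.9 to 39.9) in library 2, 39.2% (25.8 to 53.9) in library 3 and 58.6% (48.8 to 67.8) in library 4. Libraries 2 and 4, with the most gated cells, had intervals that did not overlap, and leaving out library 2 or library 4 gave 50.6% or 33.3%. The CPM followed the same order, at 40.2, 54.1, 106 and 140. After thinning, the share was 9.7% (6.73 to 13.4), below the 63% of the Siglech gate and above the 0.38% of neutrophil-like cells. Unthinned, the pooled CPM of the gate was close to that of the macrophage-like clusters with Cd163 (94.3 CPM) and led by C1qa (91.5 CPM). The macrophage-like cluster led by Pf4 and Arg1 had 10.5 CPM. The pooled level was thus not particular to the Cd209a gate. By library, macrophage-like cells without B and plasma gate cells had 91.5, 54.3, 12.8 and 19 CPM in libraries 1 to 4. The gate was above them in libraries 3 and 4 and not in libraries 1 and 2. Of the 333 gated cells 39 were macrophage-like, so these sets overlap.

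Detection of Ighm rose along both gate genes (the plot of detection along the gate genes). Without B and plasma gate cells, Ighm was detected in 7.45% of the 31708 cells with no Siglech UMI, in 27.8% of those with 1, in 76.2% of the 21 cells just outside the gate with 2, and in 87% of the 23 cells just inside it with 3 to 5. It reached 97.9% with 6 to 10 and 99.1% with 11 or more Siglech UMIs. For Cd209a the 237 cells with 1 UMI, just outside, had 18.6% and the 58 cells with 2 UMIs, just inside, had 39.7%, with intervals that did not overlap (13.8 to 24.1 and 27 to 53.4). Beyond that the share stayed between 38.6% and 47.3%, with overlapping intervals. Iglc3 differed from Ighm in rising at higher Siglech counts, from 17.4% with 3 to 5 UMIs to 83.3% with 11 or more.

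**Figure D3:**
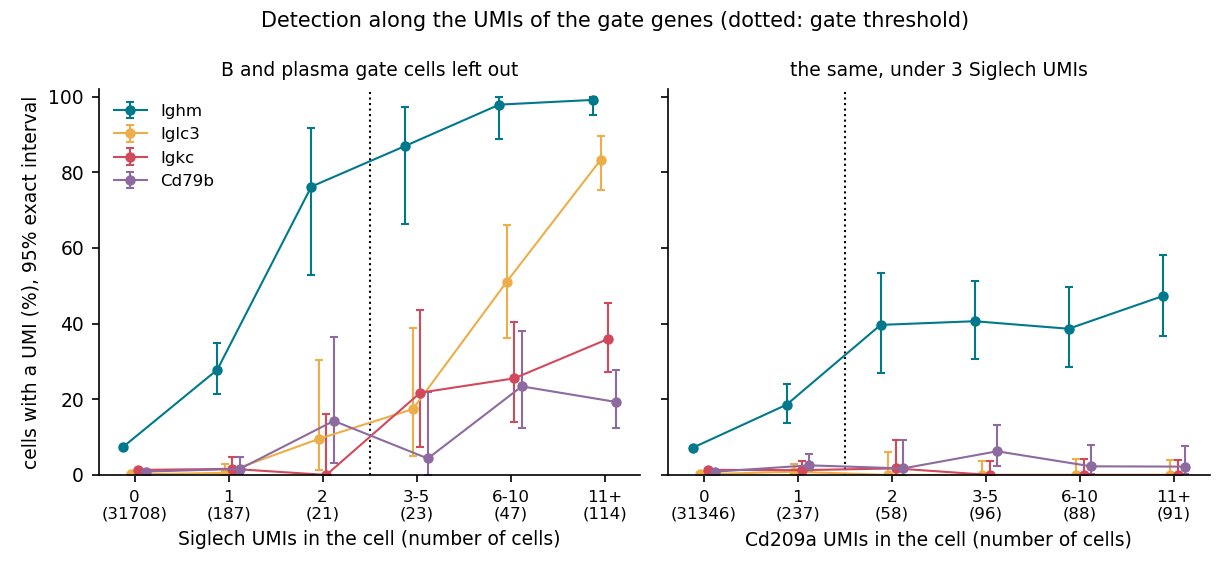
Share of cells with a UMI of Ighm, Iglc3, Igkc and Cd79b (y axis, %, with 95% exact intervals) against the Siglech UMIs (left) and Cd209a UMIs (right, cells with under 3 Siglech UMIs) of the cell, B and plasma gate cells left out, with the number of cells in brackets and a dotted line at the gate threshold. Unthinned, Ighm climbs from 7.45% to 99.1% along Siglech and levels off between 38.6% and 47.3% along Cd209a, where Igkc and Iglc3 stay near 0.

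The dendritic gates also differed in light chains. In the Siglech gate Igkc was detected in 59 cells (31.9%, 25.3 to 39.1; 261 CPM) and Iglc3 in 124 cells (67%, 59.7 to 73.8; 365 CPM). The share of Igkc was 54.5%, 29.6%, 18.2% and 32.8% in libraries 1 to 4, and that of Iglc3 was 90.9%, 74.1%, 40.9% and 68%. Both were found in all 4 libraries. In neutrophil-like cells the shares were 0.346% and 0.0198%, and after thinning Igkc was found in 12.5% of the gated and 0.152% of the neutrophil-like cells and Iglc3 in 27.2% and 0.0217%. The Cd209a gate held 2 Igkc UMIs in 1 of its 333 cells, 0.3%, a share no higher than that of neutrophil-like cells, from which no expression is read. Iglc3 was at 0 there, against a floor of 3 of the 333 cells (0.901%), which is not an exact bound.

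Within single cells of the Siglech gate, heavy and light chains were often found together. Of the 180 cells with Ighm, 51 held kappa and lambda UMIs, 70 lambda alone, 7 kappa alone and 52 neither, so that 71.1% held a light chain. Of all 185 gated cells 54 held neither light chain, so this share follows from how often each chain was found. In total the gate held 411 kappa and 647 lambda UMIs, whereas the 31 B gate cells held 760 and 293. The order of kappa and lambda was thus opposite in the 2 sets of cells, which share a cell of library 1. UMIs of variable segments, the antigen-binding ends, numbered 14 in 12 gated cells. None of the 139 cells with Ighm in the Cd209a gate held a light chain UMI.

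The signalling partners did not accompany Ighm to the same degree. Cd79b was detected in 35 Siglech gate cells (18.9%, 13.5 to 25.3; 33.1 CPM) and in 36.4%, 3.7%, 18.2% and 20.8% of those of libraries 1 to 4. Library 2 was lowest, at 1 of 27 cells. Cd79a, its partner, was found in 2 of the 185 cells (1.08%, 0.131 to 3.85), Ms4a1 in 1, Jchain in 4 cells with 11 UMIs, and Mzb1 in 3. The gated cells include the B gate cell of library 1 with 12 Siglech UMIs. That cell held 1 Cd79a UMI, 6 Cd79b UMIs and the only Ms4a1 UMI of the gate. Of the 35 cells with Cd79b, 34 held Ighm and 31 a lambda UMI, while of all 185 gated cells 180 held Ighm and 124 a lambda UMI. After thinning the share of Cd79b was 4.89%, against 0 of 9207 neutrophil-like cells. In the Cd209a gate Cd79b was found in 11 cells (3.3%), Cd79a in 2, and Ms4a1, Jchain and Mzb1 in none.

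A subset of 36 Siglech gate cells also had at least 2 Cd209a UMIs. Ighm was found in 97.2% of them and in 97.3% of the other 149. Iglc3 was found in 38.9% (23.1 to 56.5) against 73.8% (66 to 80.7), with intervals that did not overlap. For Igkc (19.4% against 34.9%) and Cd79b (8.33% against 21.5%) the intervals overlapped.

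On the fold scale, 3 of the 6 members with at least 20 UMIs were at least 4-fold higher in the Siglech gate than in cells of neither gate, where 2.86% of 21759 genes were. Folds are ratios of summed CPM after adding 1 CPM, with no test, since the cells are 1 pooled sample. The median log2 ratio of the 6 members was 2.36, against -0.13 over all genes. Ighm was 40.5-fold higher (log2 5.34), Cd79b 15.8-fold (3.98) and Igkc 11.2-fold (3.49). Cd79a, Ms4a1 and Jchain had log2 ratios of 0.14, 0.40 and 1.24, while Mzb1 had too few UMIs to be included. Without the B and plasma gate cells in the reference, Igkc was 95.1-fold, Ighm 60.4-fold, Cd79b 17.8-fold and Jchain 7.08-fold higher, so that 4 of 6 passed (2.87% of all genes). The Jchain value rested on 11 UMIs in 4 cells, with 8 UMIs in 1 cell, and no gated cell held Jchain after thinning. In the Cd209a gate Ighm alone was at least 4-fold higher (4.82-fold), where 0.883% of 21750 genes were. Without the B and plasma gate cells it was 7.17-fold higher, where 0.888% of genes passed. Igkc was at least 4-fold lower there (log2 -3.94, 2.5% of all genes), which was lost without the B and plasma gate cells (log2 -0.86, where 2.49% of genes passed). The median over the members was -0.38 against -0.15 over all genes.

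Other genes of the B cell programme were counted in fixed lists. Of all genes, 2.86% were at least 4-fold higher in the Siglech gate. In the Siglech gate 4 of 4 light chain constant genes with at least 20 UMIs were at least 4-fold higher, with Iglc3 267-fold, Iglc2 25.7-fold and Iglc1 7.79-fold (list median log2 4.09). Of 3 heavy chain genes, Ighm and Ighd passed. Of 14 B and plasma cell transcription factors 7 passed, led by Spib (157-fold), Bcl11a (78.7-fold), Irf8 (25.4-fold) and Tcf4 (11.1-fold), with Irf4, Pou2f2 and Xbp1 between 4.29-fold and 8.8-fold. These are also known factors of dendritic cells. Of 10 signalling genes, the adaptors Blnk (47.4-fold) and Dapp1 (4.54-fold) passed. Of 10 co-receptors, Fcrla (175-fold), Tnfrsf13c (7.53-fold) and Cd37 (6.96-fold) were higher and Cd81 was at least 4-fold lower, as were 4.07% of all genes. Of 10 plasma cell secretion genes, Tnfrsf13b (10.9-fold), Eaf2 and Edem2 passed. Of 3 surrogate light chain and recombination genes with enough UMIs, Dntt, the enzyme that adds bases at antibody gene joints, passed and was found in 50 of the 185 cells (27%).

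In the Cd209a gate the same lists gave fewer genes. Of all genes, 0.883% were at least 4-fold higher there and 2.5% at least 4-fold lower. Bcl11a (12.2-fold), Irf4 (12.1-fold) and Spib (4.29-fold) passed among the 14 transcription factors and Blnk (4.6-fold) among the 10 signalling genes. No light chain gene was higher, and Cd81 was lower. Across all kept cells, Ighg1, Ighe, Vpreb2 and Rag2 had 0 UMIs, Ighg2b and Iglc4 had 1 and Ighg3 had 2, so that few UMIs of heavy chains other than mu, delta and alpha were seen. Ighg2a has no row in the matrix and could not be counted, which limits what is said of these heavy chains. Ighg2c had 14 UMIs, all in 1 cell of library 1.

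Ighm was found in other leucocytes as well. Among named classes, without B and plasma gate cells and after thinning to 1000 UMIs, it was detected in 66% (58.2 to 73.3) of plasmacytoid dendritic-like cells, 8.94% (7.11 to 11.1) of Cd209a dendritic-like cells, 6.43% (3.97 to 9.76) of NK-like cells, 4.45% (3.89 to 5.07) of macrophage-like cells, 3.11% (2.21 to 4.25) of T cell-like cells and 1.76% (1.37 to 2.23) of monocyte-like cells. The first class stood clear of all others, while each later neighbour in this order overlapped the next. The order of the later classes was not the same within library 1, where NK-like cells had 7.69%, macrophage-like cells 7.15% and Cd209a dendritic-like cells 6.82%, with overlapping intervals. Unthinned, macrophage-like cells were highest of these in that library, at 91.5 CPM against 66.7 and 62.1 CPM. Fibroblast-like, tumour or epithelial-like and neutrophil-like cells were below 0.4%. Mature dendritic-like cells, which express Ccr7 and Fscn1, had 0 of 218.

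**Figure D4:**
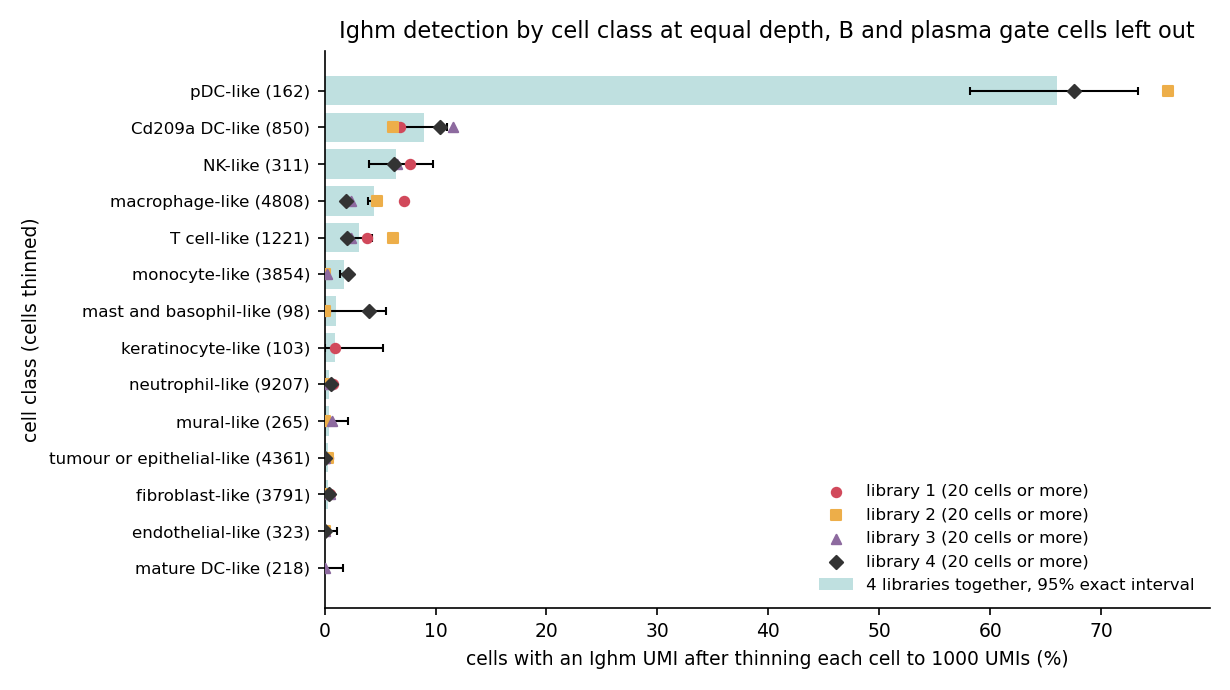
Share of cells with an Ighm UMI after thinning each cell to 1000 UMIs (x axis, %) in the named classes (y axis, number of thinned cells in brackets), without B and plasma gate cells. Bars are the 4 libraries together with 95% exact intervals and markers are libraries with 20 cells or more. The plasmacytoid class is at 66% and the next, Cd209a DC-like, at 8.94%.

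Unthinned, the NK-like share was 25.1% (79 of 315 cells, 52.7 CPM) and was alike in libraries 1, 3 and 4, at 30.1%, 21.3% and 23.8%, with overlapping intervals. The macrophage-like share differed between libraries, at 35.2% in library 1, 13.3% in library 2, 3.98% in library 3 and 7.98% in library 4. It differed between clusters too, being 35.4% in the cluster led by C1qa and MHC class II genes, 26.4% in the cluster with Cd163 and 4.22% in the cluster led by Pf4 and Arg1. Of the 1623 cells of the first of these, 1604 were from library 1, so that this cluster and that library cannot be told apart. In the Cd163 cluster, where 700 of 929 cells were from library 2, the share was 19%, 28.3%, 23% and 19.7% in libraries 1 to 4.

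Cd79b and Cd79a outside B cells lay in different cells. Outside the B and plasma gates Cd79b was found in 123 macrophage-like cells (2.31%, 3.74 CPM), 62 monocyte-like cells (1.59%) and 31 plasmacytoid dendritic-like cells (19.1%), against 1 of 10111 neutrophil-like cells. Its macrophage-like share was 1.78%, 2.3%, 3.38% and 2.53% in libraries 1 to 4. Cd79a was found in 86 fibroblast-like cells (2.25%, 0.708 CPM) at a median depth of 29212 UMIs, and in none of them after thinning. It was also found in 12 of 341 endothelial-like cells, whose whole cluster had 1.96 CPM, and in 25 of 4602 tumour or epithelial-like cells. Over all kept cells its level was 1.05 CPM, with 53.4% of the UMIs in B and plasma gate cells. Without those cells it was 0.482 CPM in the 31708 cells with no Siglech UMI. Of the cells with Cd79a in all, 84.7% held 1 UMI. The 12 Ms4a1 UMIs of monocyte-like cells lay in 12 cells.

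In neutrophil-like and fibroblast-like cells, Igkc at low counts moved with the libraries that held a plasma gate cell, libraries 1 and 3. Library 3 also held 20 of the 31 B gate cells. In neutrophil-like cells Igkc was found in 0.679% of library 1, 0.0506% of library 2, 0.796% of library 3 and 0.0498% of library 4. In fibroblast-like cells the shares were 2.78%, 0.278%, 8.47% and 0.988%. In both classes libraries 1 and 3 were above libraries 2 and 4, though the intervals of libraries 1 and 4 overlapped in both. T cell-like cells did not follow this order, with shares of 6%, 6.93%, 4.1% and 1.97% in libraries 1 to 4. In the 4083 tumour or epithelial-like cells of library 1, 120 cells (2.94%) held Igkc, each with 1 UMI. Of such cells, 2 of 376 held it in library 2 and 0 of 104 in library 3 (exact upper bound 3.48%). Igha, carried by the plasma gate cell of library 1, had 128 UMIs in 99 other cells of that library, against 3, 2 and 3 UMIs in libraries 2 to 4. Whether RNA of the plasma cells reached the other droplets was not tested.

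**Figure D5:**
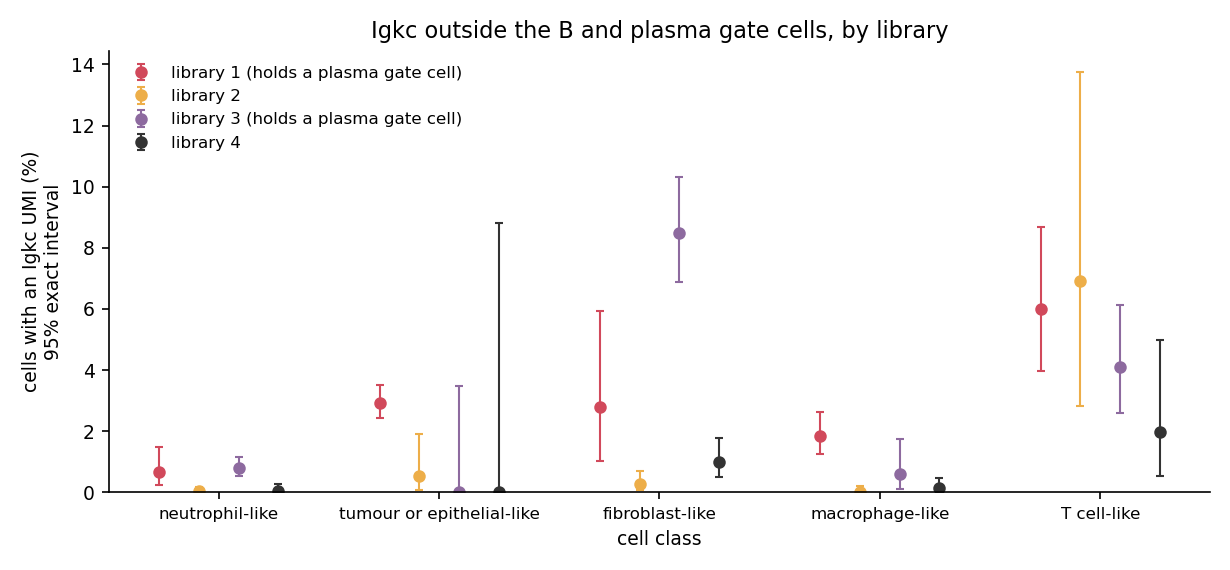
Share of cells with an Igkc UMI (y axis, %, with 95% exact intervals) in 5 named classes (x axis) by library, B and plasma gate cells left out. Libraries 1 and 3, which hold the plasma gate cells, are above libraries 2 and 4 in neutrophil-like and fibroblast-like cells, with overlapping intervals for libraries 1 and 4. In T cell-like cells library 2 (6.93%) is not below them.

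Across the 30 clusters, the genes with the most similar profiles to each member were taken from the 15593 genes with at least 200 UMIs, by Pearson's r of log2(CPM + 10). The clusters share libraries and a few of them set these values, so r is a description. For Ighm they were Adgrg5 (r = 0.921), Cd79b (0.912) and Kmo (0.87), and for Cd79b Kmo (0.964), A430035B10Rik (0.92) and Gm48838 (0.916). For Igkc they were Clec9a (0.931), Btla (0.93) and Sct (0.909). Cd79a was closest to Snx22 (0.968), Jchain (0.964) and Sept3 (0.943), Ms4a1 to Jchain (0.977), Cd79a (0.973) and Snx22 (0.963), and Jchain to Sept3 (0.975), Bex6 (0.97) and Cd79a (0.964). Mzb1, with 4 UMIs, was closest to Klk1b27, Gm21762 and Klk1 (0.998 to 0.999). Without the B and plasma gate cells Ighm kept Adgrg5 (0.906) and Cd79b (0.895), while the genes nearest to the others changed. They were then Pacsin1 for Igkc (0.941), 1810034E14Rik for Cd79b (0.935), Ppm1f for Cd79a (0.735), Ifi213 for Ms4a1 (0.776) and Iglc3 for Jchain (0.994) and Mzb1. Jchain was at 0 in the 27 B gate cells and Ms4a1 at 0 in both plasma gate cells, and these cells lay in 1 cluster, so the r of 0.977 does not mean that the 2 genes were in the same cells.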

How the data were processed

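The authors deposited unscaled UMI counts as 1 matrix (55450 genes by 33064 barcodes), in which Cell Ranger had joined 4 libraries. Cell Ranger is given as 6.1.2 in the matrix header, 3.0.2 in the design text and 2.1.1 in the submitters' processing notes, which name the build mm10. All identifiers were found in GENCODE vM21 (GRCm38), used for coordinates and sequences. The design text states 15603 cells after its filter (at least 300 genes, at most 15% mitochondrial UMIs), and that filter left 32133 here. Depth was 69255999 to 108646352 UMIs per library, which limits each share as its interval shows.

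The 4 samples were grouped by labels (PBS, TIOs, unassigned), but barcodes could not be linked to them, so cells were 1 pooled sample without tests. The members and lists were chosen with earlier results of these data known. Counts were scaled to 10000 per cell, logged, reduced to 2000 variable genes and 30 components and clustered by Leiden (20 neighbours, resolution 1.0, seed 1) in scanpy 1.11.5 (igraph 0.11.9, Python 3.11.15). Clusters were named from fixed markers if at least 3 were detected in 10% of cells, their mean log2 fold over the median cluster was at least 2, the second list scored under 0.9 of it and the leading 10 genes did not favour another list, by a rule set after the clusters were seen. An item of the B gate and marker lists is not reported here, and both were computed without it, a choice made after seeing the data. Neutrophil-like cells served as a class that should lack the genes. The names are rebuilt and can differ from the authors' own. The doublet caller Scrublet marked under 0.5% of cells in 2 libraries and so had not worked there, and doublets were kept. The highest 5% of scores (1606 cells) were removed as an alternative. Thinning used 1000 UMIs and left out 1890 shallower cells. Intervals are exact at 95% (scipy 1.17.1). Genes named are the 7 members, genes of the fixed lists past 4-fold in a gate or with at most 2 UMIs, and the 3 genes most like each member over clusters. Marker genes and B cell genes beyond these were named after their values were seen. The fold calculation was tested on simulated counts. Alternatives were other filters, gates, thresholds, resolutions and pseudocounts, thinning, removing doublets, shared barcodes or plasma cells, and leaving out each library.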

Additional observations from a re-analysis of the deposited data

How the results depend on the processing

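The share of kept cells with Ighm (8.21%) was 8.56% with a minimum of 500 genes and 7.00% to 9.31% without 1 library. In the Siglech gate Ighm (97.3%) was found in 93.5% at 2 UMIs, 63% after thinning and 95% to 97.7% without 1 library. In the Cd209a gate (41.7%) it was found in 32.1% from 1 Cd209a UMI, 22.5% at 2 UMIs, 9.7% after thinning and 33.3% to 50.6% without 1 library. The B gate (31 cells) gave 272 cells with 1 gene and 14 with all 3 genes, both chosen after seeing the data, and 11 to 30 without 1 library, the lowest without library 3. The plasma gate gave 0 cells, and 2 without its Mzb1 condition, an alternative chosen after seeing the data. The cluster with the most Ighm, mainly Cd209a dendritic-like and holding plasma gate cells, had 39.2% of its UMIs, 53.1% at resolution 0.5 and 37.9% at resolution 2.0. Without the plasma cells, also chosen after seeing the data, a macrophage-like cluster led with 21.7%, and the former held 19.3%. Genes past the fold in the Siglech gate (623) numbered 2297 at 2-fold and 224 with 10 CPM added. In the Cd209a gate (192) they numbered 909 and 78, and no member passed with 10 CPM added. The other 66 values of these results kept their call or moved by less than the error. Of the values of single genes, 251 did so and 32 moved. No direction was reversed. Counts with the full gene list of the B gate are not reported here. The causes were not tested. No paired analysis was possible because the libraries could not be linked to samples. Depth limits Ms4a1 and Mzb1, with 86 and 4 UMIs.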

Other observations

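T cell-like cells were split by Foxp3, the transcription factor of regulatory T cells, after their Igkc values had been seen. Igkc was found in 31 of 168 cells with a Foxp3 UMI (18.5%, exact interval 12.9 to 25.2) and in 28 of 1106 cells without one (2.53%, 1.69 to 3.64), at median depths of 3804 and 3858 UMIs, which were less alike within library 2 (10693 and 5158.5). After thinning to 1000 UMIs the shares were 8.59% and 0.756%. In libraries 1 to 4 they were 14.7%, 21.7%, 19.1% and 17.6% of cells with Foxp3 against 5.26%, 2.56%, 0.903% and 0.538% of those without, and so were higher with Foxp3 in 4 of 4 libraries. Ighm was found in 34.5% against 6.33%, and was higher with Foxp3 in each library too (47.1% against 9.27%, 73.9% against 7.69%, 20.2% against 2.26% and 35.3% against 9.14%). After thinning, the shares with Ighm were 9.09% against 3.38%, 21.7% against 1.33%, 6.67% against 1.43% and 11.8% against 1.13%, and those with Igkc 12.1% against 2.08%, 4.35% against 0, 8.89% against 0 and 5.88% against 0 (exact upper bounds 4.8%, 0.872% and 2.06%). The thinned Igkc shares with Foxp3 rested on 4 of 33, 1 of 23, 8 of 90 and 1 of 17 cells. The thinned intervals with and without Foxp3 overlapped in libraries 1, 2 and 4 for Igkc and in libraries 1, 3 and 4 for Ighm. Of the 21 T cell-like cells with at least 3 Igkc UMIs, 17 held Foxp3, 21 a Cd3 UMI and none Cd79a or Ms4a1, and 1 was among the highest 5% of doublet scores. Iglc3 was at 0 in the 168 cells. No test was run, and the cause was not tested.

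Igha, outside the plasma gate cell of library 1, was found in 11 of the 93 NK-like cells of that library (11.8%, 6.05 to 20.2, 27 UMIs) and in 7 of its 94 Cd209a dendritic-like cells (7.45%, 3.05 to 14.7, 9 UMIs), with overlapping intervals, against 1 of its 884 neutrophil-like cells and 56 of its 4083 tumour or epithelial-like cells (1.37%). Of the 433 T cell-like cells of library 1, 2 held it. These shares are unthinned, at median depths of 4539 UMIs in the NK-like, 4047 in the T cell-like and 1498 in the neutrophil-like cells. In library 3, 0 of 47 NK-like cells held Igha (exact upper bound 7.55%), and in library 4, 2 of 160.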
